A study of Mus musculus with 24 samples.

Results

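miR-15a, miR-15b, miR-16, miR-195, miR-497, miR-322 and miR-503 were followed through 24 samples of a mouse model of metastatic mammary carcinoma. These 7 probes (mmu-miR-15a, mmu-miR-15b, mmu-miR-16, mmu-miR-195, mmu-miR-497, mmu-miR-322 and mmu-miR-503) were chosen by name, as the miR-15/16 seed family with its X-linked relatives, out of 566 mouse miRNA probes of an nCounter panel. The panel carried 599 miRNA probes in all, 33 of them for viral miRNAs. The nCounter assay captures each miRNA with a barcoded probe and counts the barcodes without amplification.

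The tumors grew from JygMC(A) cells, a mouse mammary carcinoma line used as a model of triple-negative breast cancer, which carries a mouse mammary tumor virus insertion in Notch4 and here also GFP and luciferase. Tumors were raised in the fourth mammary fat pad of female Balb/C nude mice, which lack mature T cells and were aged 6 to 9 weeks. Laser capture took carcinoma areas (n = 5), spindle-shaped EMT-like areas (n = 7) and lung metastases (n = 4), and carcinoma and EMT-like areas together are called primary tumors (PT, n = 12). The references were normal mammary gland (NMG, n = 2) and normal lung parenchyma (n = 2) of Balb/C nude mice. JygMC(A)-GFP/Luc cells were also measured as a monolayer (n = 2) and as 3D-spheres (n = 2), which float on a surface that cells cannot attach to. All tumor and culture samples thus derive from 1 cell line, several tumor samples share an animal, and 1 sample each of carcinoma, EMT-like area and metastasis pools 3 animals. The NMG and normal lung samples carry a shared pair of animal numbers. The labels call the samples of a group biological replicates without saying how the cultures were started. The normal samples are labelled as new ones, apart from the tumor series. A difference in their handling and the step from normal to tumor thus cannot be told apart. The line itself comes from a wild mouse of China (Mus musculus Sub-Jyg), and the normal tissues from Balb/C nude mice. Strain and the step from normal to tumor cannot be told apart either.

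A miRNA guides the Argonaute protein to messenger RNAs that pair with its seed, the bases near its 5′ end, and so lowers their output. miRNAs with the same seed share many targets, and those of the miR-15/16 family include Bcl2, which blocks cell death, and the cyclins D1 and E1, which drive entry into the cell cycle. The locus of miR-15a and miR-16-1 is known for its loss in human chronic lymphocytic leukemia. miR-322, the mouse counterpart of human miR-424, and miR-503 are made from a shared transcript on the X chromosome and are known for a part in the regression of the mammary epithelium after lactation.

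The mature sequences are given to show what the 7 have in common. They come from RefSeq (GRCm38.p6), where all 7 names matched, and bases 2 to 8, the seed, are in capitals.
miR-15a: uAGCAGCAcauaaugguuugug
miR-15b: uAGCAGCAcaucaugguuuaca
miR-16: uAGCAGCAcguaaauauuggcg
miR-195: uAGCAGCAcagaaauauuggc
miR-497: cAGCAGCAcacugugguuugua
miR-322: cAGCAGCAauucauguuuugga
miR-503: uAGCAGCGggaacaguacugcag
Of the 7, 6 share the seed AGCAGCA, and miR-503 carries AGCAGCG. Of 1679 mature mouse miRNAs with a sequence in that table, 10 (0.596%) have AGCAGCA at these bases, the other four being miR-195b, miR-6342, miR-6353 and miR-6419, which were not analysed here. Compared base by base from the 5′ end, miR-16 and miR-195 differ at 2 of 21 positions and miR-15a and miR-15b at 4 of 22, whereas miR-503 differs from each of the others at 10 to 12. Probes for the closest pairs can bind each other's target in part, which was not tested.

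The 7 come from 4 places in the genome (GRCm38.p6). miR-15a (chr14:61632075-61632096) and a copy of miR-16 (chr14:61631936-61631957) lie on the minus strand of chromosome 14, within the Dleu2 locus. miR-15b (chr3:69009775-69009796) and the other copy of miR-16 (chr3:69009918-69009939) lie on the plus strand of chromosome 3, their hairpins 66 bases apart. miR-497 (chr11:70234730-70234751) and miR-195 (chr11:70235062-70235082) lie on the plus strand of chromosome 11, with 241 bases between the hairpins. miR-322 (chrX:53054306-53054327) and miR-503 (chrX:53054027-53054049) lie on the minus strand of the X chromosome, 200 bases apart. The mature miR-16 of both copies is identical, so its value sums 2 loci that the assay cannot tell apart.

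Values are given as normalized values, which are the deposited background-subtracted counts, floored at 0 and scaled between lanes by the trimmed mean of M-values (TMM). The sum of mouse miRNA counts per lane was 24418 to 44953 in the cultures, 110552 to 183539 in PT, 61497 to 114004 in metastases, 525225 and 559660 in NMG, while normal lung gave 589588 and 2334955. The second normal lung lane, with the highest sum of all 24, stands apart from its partner. For detection, each lane had a limit set 2 SD over the mean of its own 6 negative controls, which came to between 4 and 21.4 counts. Because normal lanes were deeper, a weak miRNA could pass this limit there and not in a tumor or a culture. Groups were compared with limma on log2(normalized value + 1), all 24 samples in 1 fit, and a miRNA was called at a Benjamini-Hochberg adjusted p under 0.05 over 583 probes. This scale understates changes of low miRNAs. Probes differ in efficiency, so the signal of a probe says little of the amount of its miRNA relative to another, and where a probe is said to give most of a list's signal, no more than its signal is meant.

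On the TMM-scaled values, miR-16, miR-15a and miR-322 stood far higher in both normal tissues than in any tumor or culture. Normal lung was highest in miR-16, with normalized values of 14496 and 14463, and NMG followed with 6555 and 6233. It ran from 1643 to 2609 (median 1974) in carcinoma, from 1263 to 2635 (median 2315) in EMT-like areas, and was 1771, 2048, 2178 and 2340 in the 4 metastases. Of the monolayer samples, 1 had 941.0 and the other 85.6, and the spheres had 71.4 and 96.7. No tumor sample reached the lower NMG sample, no culture reached the lowest tumor sample, and the 3 tumor groups overlapped.

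miR-15a, which shares a locus with 1 copy of miR-16, was also highest in normal lung, then in NMG. By group median it was lowest in spheres, which overlapped the monolayer. Its 3 tumor groups overlapped. NMG gave normalized values of 1908 and 1395, and normal lung 2892 and 3799. Carcinoma areas lay between 458 and 728, EMT-like areas between 325 and 690.4 with a median of 507, and metastases between 414 and 603. One monolayer sample, at 528, lay within the range of the tumors, whereas the other (30.6) and both sphere samples (38.3 and 37.2) lay far under it, and the first was the same culture that was high in miR-16.

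miR-15b showed another picture. Its normalized value was 1561 and 1042 in NMG, 2001 and 1432 in normal lung, 1427 to 2646 (median 2003) in carcinoma, 832 to 1935 (median 1567) in EMT-like areas and 1619 to 2386 in metastases. Values of 4895 and 2426 were found in the monolayer, against 1219 and 1395 in spheres. Ordered by their medians from the monolayer down to NMG, each of the 7 groups overlapped its neighbour.

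miR-322 was the member with the clearest gap between normal tissue and tumor. Its normalized value was 1151 and 1058 in NMG and 1056 and 1006 in normal lung, so both normal tissues stood nearly level. Carcinoma areas had 68.0 to 168 (median 87.4), EMT-like areas 67.9 to 161 (median 125) and metastases 52.6, 77.7, 91.6 and 94.7. The cultures were lowest (monolayer, 41.9 and 28.5, spheres, 17.4 and 17.3), and of these 4 only the first was above its detection limit.

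miR-195, miR-497 and miR-503 gave values near the limit in the tumors. The normalized value of miR-195 was 44.1 and 50.1 in NMG and 73.7 and 77.6 in normal lung, against a mean of 11.6 in carcinoma and 10.1 in EMT-like areas, where 2 of 5 and 2 of 7 samples were above the limit. It was detected in 2 of 4 metastases and in 0 of 4 cultures. miR-497, its neighbour on chromosome 11, had 57.3 and 98.7 in NMG, against 136 and 95.0 for normal lung, was detected in 11 of 12 PT samples at 14.0 to 34.4, and in 1 of 4 cultures. miR-503 was detected in both NMG samples, with deposited values of 28 and 26, and in 1 of the 2 normal lung samples, with 10 and 102. In all 20 tumor and culture lanes it was under the limit and below 0 after background subtraction. miR-503 thus entered the fit through the normal lanes alone and had to differ from the tumors there, so its tests carry no weight, and the counts of called members that follow are of the other 6.

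**Figure D1:**
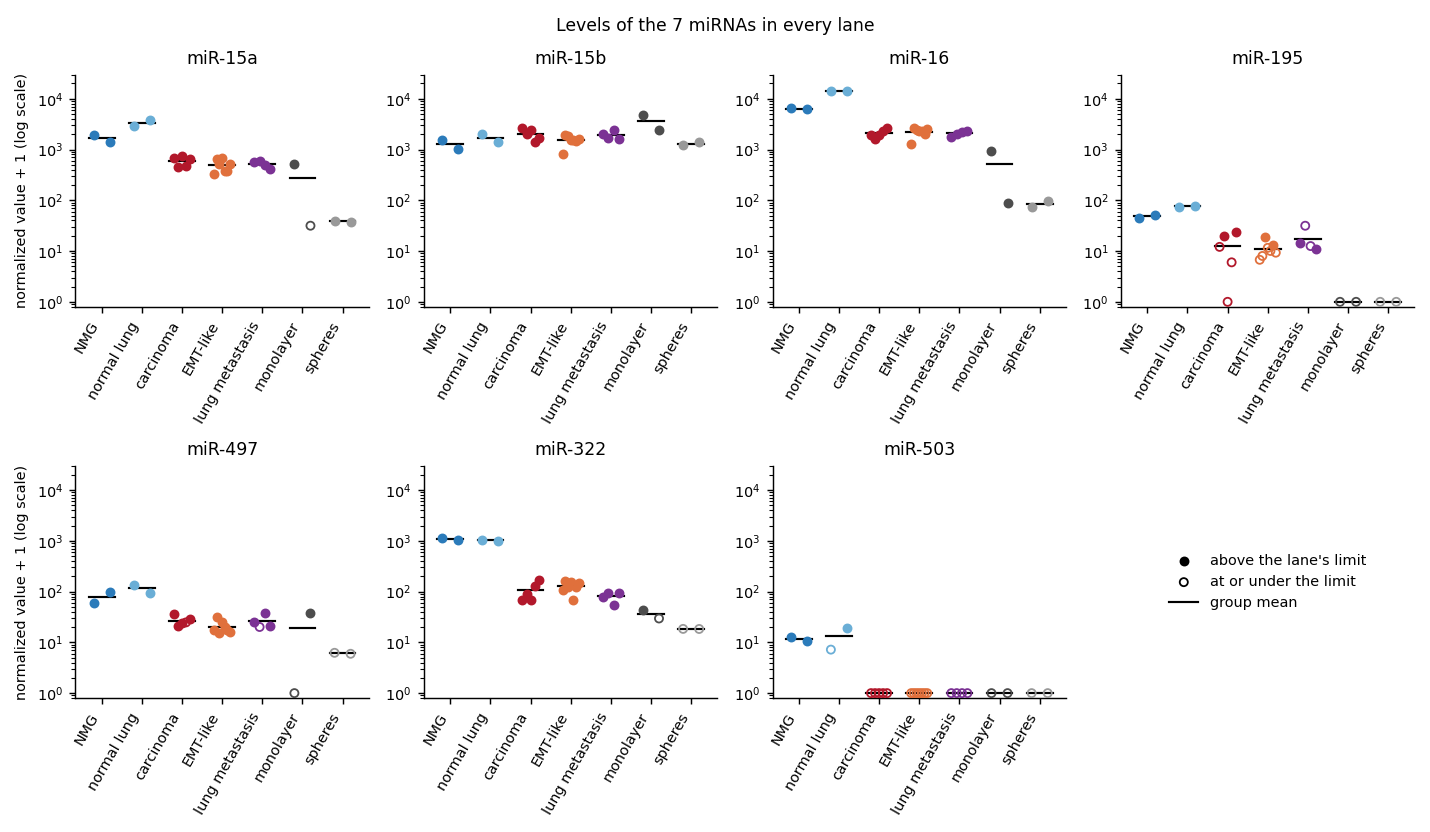
Normalized value + 1 (log axis) of each of the 7 miRNAs in every lane, by group; filled points are above the lane's detection limit, open points are at or under it, and lines are group means. miR-15b overlaps between neighbouring groups, while miR-322 lies at 1006 or more in the normal tissues and at 168 or less in the tumors.

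Within a lane, no scaling is needed to compare how the family is composed. In NMG, miR-16 made up 58.1% and 63.0% of the summed deposited signal of the 7, miR-15b 13.8% and 10.5%, and miR-322 10.2% and 10.7%. In PT the share of miR-15b was higher in each sample, 32.4% to 49.2% in carcinoma and 32.5% to 37.3% in EMT-like areas, and that of miR-322 lay between 1.28% and 4.17%. In the cultures miR-15b alone gave 76.4% and 93.0% of the monolayer signal and 90.2% and 89.9% of that of spheres. Shares are proportions of what these probes yield, so a share of 1 member is compared only between groups. The summed signal behind them was 27394 and 26634 counts in NMG and between 626 and 4125 in the cultures.

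**Figure D2:**
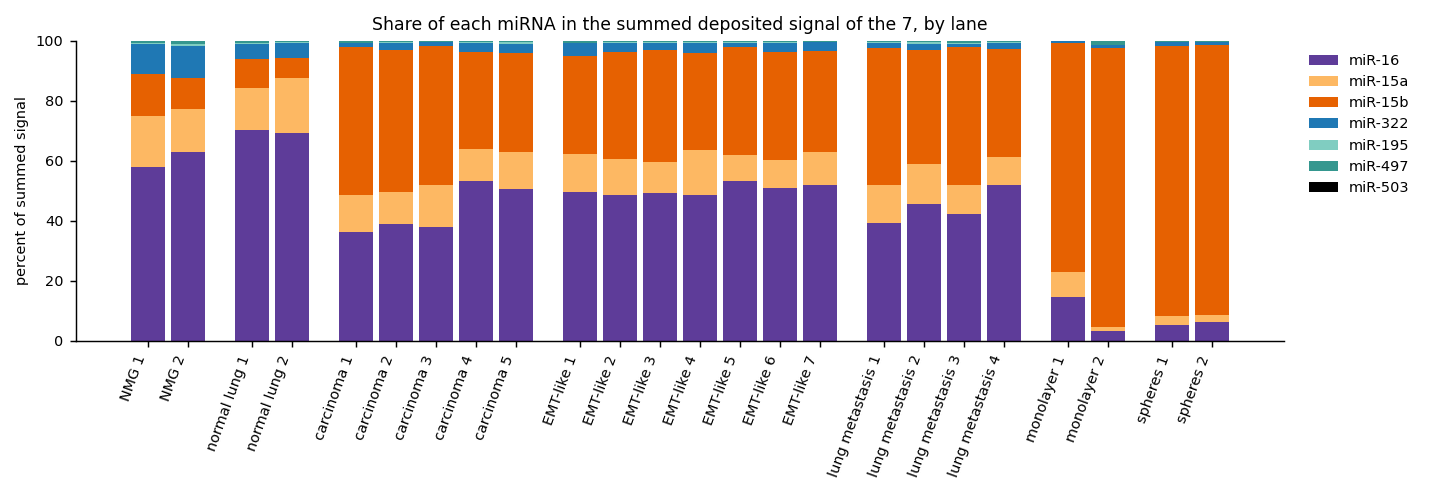
Percent of the summed deposited signal of the 7 miRNAs (values below 0 set to 0) that each contributed, in every lane. miR-15b takes 10.5% and 13.8% in NMG, 32.4% to 49.2% in PT and 76.4% to 93.0% in the cultures, while miR-322 takes 10.2% and 10.7% in NMG.

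Ratios of pairs of members in the same lane were tested by exact permutation over samples, two-sided, 20 times in all (5 ratios in 4 comparisons), with Benjamini-Hochberg adjustment over the 20. The log2 ratio of miR-15b to miR-15a, close relatives from different chromosomes, was -0.36 ± 0.093 (SD, n = 2) in NMG and ran from 1.13 to 2.13 in PT. As a ratio that is 0.82 and 0.75 in NMG, where miR-15a gave the higher count, against 2.19 to 4.36 in PT. The difference was 2.05 on the log2 scale (4.14-fold, exact permutation p = 0.011, adjusted p = 0.0366), with no overlap, and 0.011 is the smallest p that 12 samples against 2 allow. Several PT samples share an animal, and with 1 value per animal (8 against 2, a test added after the data were seen) the difference was 2.09 and the call was lost (exact permutation p = 0.0222, the smallest this design allows, adjusted p = 0.0741). Without NMG replicate 1 or 2 the difference was 2.11 or 1.98, and with 1 NMG sample left the p cannot go below 0.0769 by exact permutation. In metastases the ratio was 2.82 to 4.82 against 0.69 and 0.38 in normal lung, a log2 difference of 2.87, again without overlap. With 4 samples against 2 the exact permutation p cannot go below 0.0667, which is the value found (adjusted p = 0.167). Between metastases and PT as groups the ratio overlapped (log2 difference 0.21, exact permutation, adjusted p = 0.409). Each metastasis shares an animal, or in 1 case a pool of animals, with PT samples, and set against the PT mean of its own animal, a comparison added after the data were seen, the log2 ratio was higher in 4 of 4, by 0.21, 0.23, 0.31 and 0.33. The mean of 0.27 ± 0.059 (SD, n = 4) had an exact sign-flip permutation p of 0.125, two-sided, the smallest that 4 animals allow (adjusted p = 0.208 over 5 ratios), so this pairing could not give a call.

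In the cultures the ratio of miR-15b to miR-15a was 9.25 and 74.4 for monolayer cells, against 30.5 and 35.2 for spheres. Each culture was above each PT sample, with a log2 difference of 3.18 (9.06-fold, exact permutation p = 0.000549, adjusted p = 0.00549). This difference kept its direction and its call when each sample was left out (log2 difference 2.73 to 3.74) and with 1 PT value per animal (3.14, exact permutation, adjusted p = 0.0202). The 4 cultures were still counted singly there, although a monolayer and a sphere sample share each culture number. A test with 1 value per culture number was not run, so these p-values may be too small. miR-15a was above the limit in 3 of the 4 cultures, so the ratio there rests on small counts, and with a higher background subtracted the log2 difference was 5.24.

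The ratio of miR-322 to miR-16 also moved, in the opposite sense. Its log2 value was -2.51 and -2.56 in NMG and ran from -5.07 to -3.56 in PT, a difference of -1.71 (exact permutation p = 0.011, adjusted p = 0.0366) without overlap. With 1 value per animal it was -1.78 and the call was lost (exact permutation, adjusted p = 0.0741). Leaving out NMG replicate 1 or 2 gave -1.68 or -1.73, where no exact permutation test could pass. In lung the difference was -0.91 (exact permutation, adjusted p = 0.167), since normal lung itself stood at -3.78 and -3.84. Between metastases and PT as groups the log2 difference was -0.48, with overlap (exact permutation, adjusted p = 0.172). Against the PT mean of their own animal they were lower in 4 of 4, with differences of -0.31, -0.54, -1.28 and -0.51 (mean -0.66 ± 0.43, SD, n = 4, exact sign-flip permutation p = 0.125, again the smallest possible, adjusted p = 0.208). In the cultures this ratio was 1.69 higher than in PT (exact permutation, adjusted p = 0.0275), but miR-322 was under the limit in 3 of these 4 lanes, the call was lost with 1 PT value per animal (adjusted p = 0.0707) and the sign turned to -0.68 with a higher background, so no direction is read from it.

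The ratios of miR-195 to miR-16, miR-497 to miR-195 and miR-503 to miR-322 rest on values near the limit in the tumors. For miR-195 to miR-16 and miR-497 to miR-195 none of the 8 tests passed (adjusted p from 0.181 to 0.933 by exact permutation). For miR-503 to miR-322 the calls against PT, in metastases and in cultures (exact permutation, adjusted p = 0.0147 and 0.00549), compare lanes in which miR-503 was at 0 throughout, so they carry no information on miR-503.

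**Figure D3:**
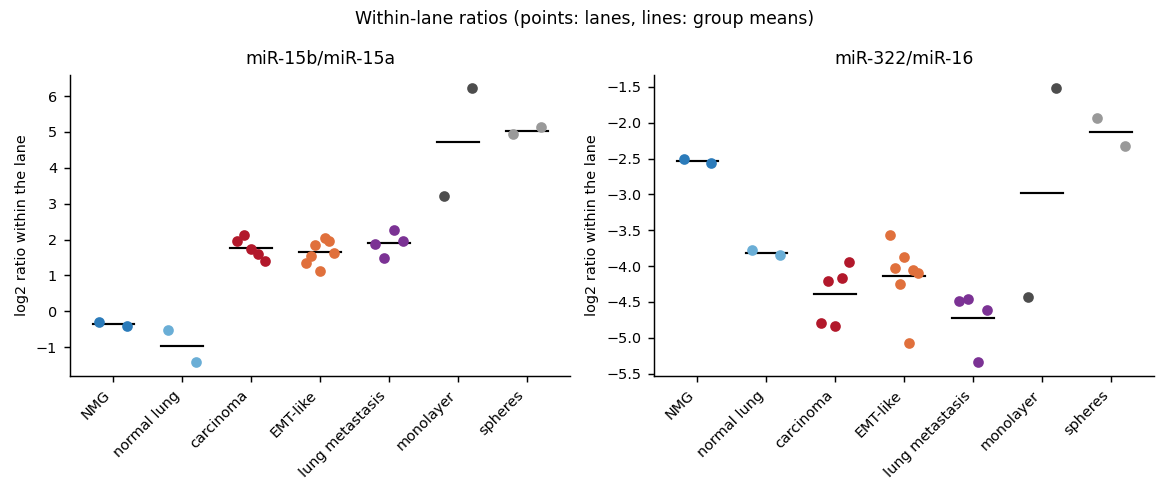
log2 ratio within the lane of miR-15b to miR-15a (left) and of miR-322 to miR-16 (right) in every lane, by group; lines are group means. For miR-15b to miR-15a, PT samples lie between 1.13 and 2.13 and NMG at -0.29 and -0.42, and for miR-322 to miR-16 PT lies between -5.07 and -3.56 and NMG at -2.51 and -2.56.

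The comparison with NMG sets tumor areas against normal mammary gland of the host strain. In carcinoma, 3 of the 6 members were called lower and 0 higher, against 23.8% of all 583 probes called lower. The 583 include weak probes, and of the 323 with a deposited value of at least 20 in 2 samples, fitted alone, 100 were called lower. miR-322 had a log2 fold change of -3.48 (SE 0.36, adjusted p = 2.26e-07), miR-195 of -2.57 (SE 0.83, adjusted p = 0.0241) and miR-16 of -1.62 (SE 0.51, adjusted p = 0.0201). As miR-195 was above the limit in 2 of 5 carcinoma, 2 of 7 EMT-like and 2 of 4 metastasis samples, the size of its changes is uncertain. miR-15a (log2 fold change -1.48, adjusted p = 0.0701) and miR-497 (-1.54, adjusted p = 0.153) missed the threshold, and miR-15b had 0.64 (SE 0.33, adjusted p = 0.161). The median over the 6 was -1.58, beside -0.68 over all probes.

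In EMT-like areas, which are compared with the same NMG samples, 4 of the 6 were called lower and 0 higher, against 20.4% of all probes. With the filter of at least 20 in 2 samples, 93 of 323 probes were called lower. The log2 fold change was -3.17 (SE 0.35, adjusted p = 5.1e-07) for miR-322, -2.19 (SE 0.80, adjusted p = 0.0499, and 0.05004 with the animal or culture number as a block, which ends the call) for miR-195, -1.77 (SE 0.57, adjusted p = 0.0250) for miR-15a and -1.57 (SE 0.49, adjusted p = 0.0208) for miR-16. miR-497 had -1.96 (adjusted p = 0.0588) and miR-15b 0.23 (SE 0.31, adjusted p = 0.694). The median over the 6 was -1.86, beside -0.30 over all probes.

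These calls differ in how firmly they stand. Under the 16 other settings and left-out samples for carcinoma and the 18 for EMT-like areas, miR-322 was called lower in all. Without NMG replicate 1 or NMG replicate 2, miR-322 alone of the 6 was called in each comparison. The calls of miR-16 and miR-195, and in EMT-like areas that of miR-15a, were then lost, with adjusted p of 0.103 to 0.240. The call of miR-195 in EMT-like areas was also lost on leaving out any EMT-like sample but replicate 3. With the miRNA total or the 100 most abundant miRNAs as scaling, the same calls were lost and miR-15b was called higher, at 1.09 and 1.54 in carcinoma and 0.88 and 1.41 in EMT-like areas. Over the settings other than left-out samples, miR-16 had at the weakest -0.72 in carcinoma and -0.38 in EMT-like areas. miR-15a had -0.57 and -0.59, and miR-322 -2.58 and -1.98, so the size of the first pair depends on the processing. A higher background also made miR-15b called higher (1.06 and 0.84) and lost the call of miR-16 in both and that of miR-15a in EMT-like areas, and with only the groups compared miR-195 lost its call in carcinoma (adjusted p = 0.199). Other settings added calls. Of the 9 settings other than left-out samples, miR-497 was called lower in 5 for carcinoma and 6 for EMT-like areas, and miR-15a in 3 for carcinoma. On the unscaled values, and on those scaled by the 4 mRNA controls, miR-15a (-3.05 and -2.36) and miR-497 (-3.09 and -2.41) were called in carcinoma and miR-497 in EMT-like areas (-3.13 and -2.96), so that of the 6 only miR-15b was not called there.

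Lung metastases were compared with normal lung parenchyma. Here 5 of the 6 members were called lower and 0 higher, against 42.2% of all probes called lower. With the filter of at least 20 in 2 samples, 131 of 323 probes were. miR-322 had a log2 fold change of -3.72 (SE 0.37, adjusted p = 4.34e-08), miR-16 of -2.80 (SE 0.53, adjusted p = 0.000182) and miR-15a of -2.69 (SE 0.62, adjusted p = 0.00136). miR-195 had -2.28 (SE 0.86, adjusted p = 0.0325) and miR-497 -2.18 (SE 0.80, adjusted p = 0.0276). miR-15b had 0.18 (SE 0.34, adjusted p = 0.718). The median over the 6 was -2.48, beside -0.90 over all probes.

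Leaving out a sample kept miR-322, miR-16 and miR-15a called in lung. With the miRNA total, miR-15a, miR-195 and miR-497 lost their calls (adjusted p = 0.0942, 0.492 and 0.601), and with the 100 most abundant miRNAs miR-16 did too (-1.01, adjusted p = 0.0802). The call of miR-15a was also lost with a higher background subtracted (adjusted p = 0.270). miR-195 lost its call without each sample but metastasis replicate 2, and miR-497 without metastasis replicates 2 and 4 and without either normal lung sample. The log2 fold change of miR-322 stayed between -3.82 and -3.54 over all left-out samples, normal lung replicate 2, the deep lane, among them. miR-15b changed with the scaling, from -2.33 with the 4 mRNA controls and -1.97 with no scaling, both called, to 1.66 and 1.97 with the miRNA total and the 100 most abundant miRNAs, also called.

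**Figure D4:**
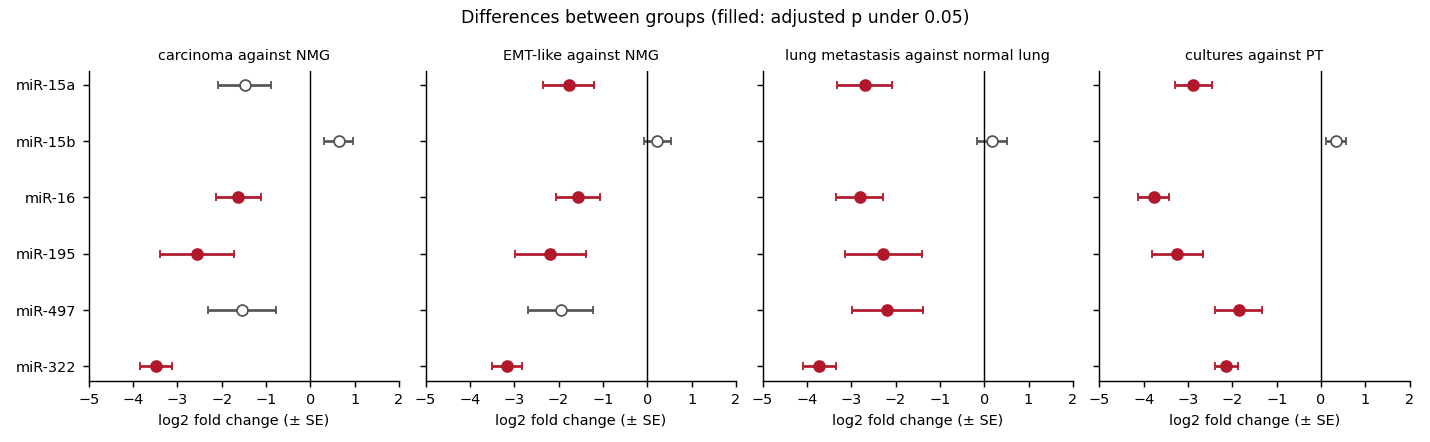
log2 fold change ± SE of 6 of the miRNAs in 4 comparisons (limma, all samples in 1 fit); filled points have an adjusted p under 0.05, and miR-503 is left out because its tumor and culture values are at the floor. miR-322 lies at -3.48, -3.17, -3.72 and -2.13, and miR-15b at 0.64, 0.23, 0.18 and 0.33.

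**Figure D5:**
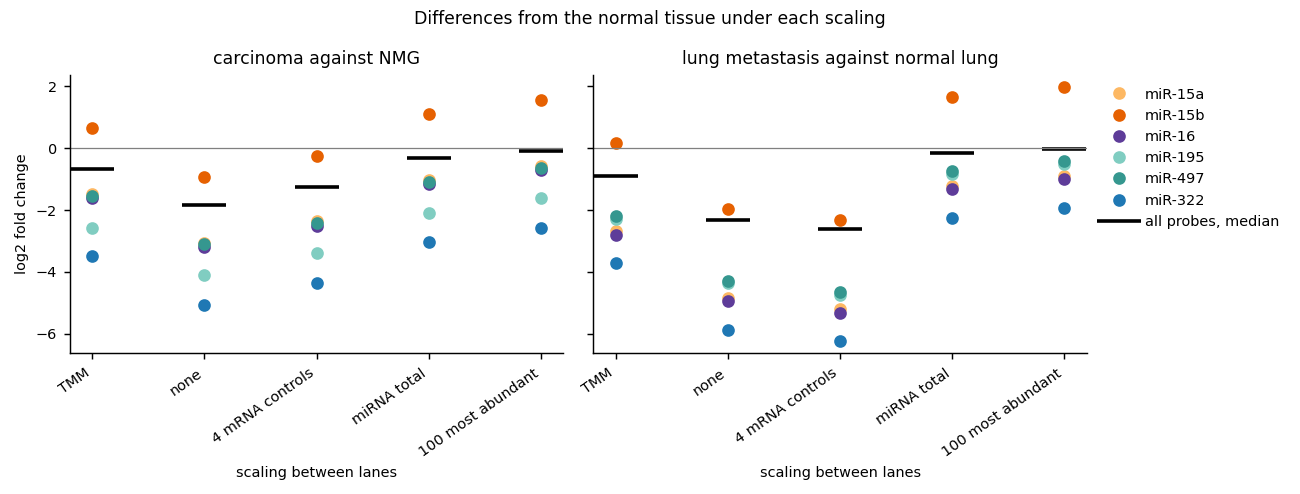
log2 fold change of 6 of the miRNAs under 5 ways of scaling the lanes, for carcinoma against NMG (left) and lung metastasis against normal lung (right); black bars are the median of all probes tested. Each scaling moves the points in a shared direction, but not by the same amount as the bar, and the sign of miR-15b depends on the scaling.

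Among tumor areas few probes of any kind were called, so a count of 0 says little of the family. Between carcinoma and EMT-like areas, 0 of the 6 members were called (limma, smallest adjusted p = 0.434, and 0 with an unadjusted p under 0.05), where 0.172% of all probes were. Between metastases and PT it was again 0 of 6, against 3.09% of all probes, and miR-322 had the smallest adjusted p, 0.316, at an unadjusted p of 0.0486. Its normalized value was 79.1 ± 19.2 (SD, n = 4) in metastases and 117 ± 37.1 (SD, n = 12) in PT. The tumor animals fall into a series with lettered and a series with numbered labels. With the series as a term both counts stayed at 0, and with no scaling miR-322 was called lower in metastases than in PT (-1.08, adjusted p = 0.0291). The log2 difference of miR-322 between metastases and PT was -0.26 within the lettered series (1 against 5 samples) and -0.71 within the numbered series (3 against 7). That of miR-15b between carcinoma and EMT-like areas was 0.88 in the lettered series (3 against 2) and -0.03 in the numbered series (2 against 5). Between normal lung and NMG 0 of the 6 were called, against 11.7% of all probes, and miR-16, at 14479 ± 23.0 against 6394 ± 228 (SD, n = 2 each), had the smallest adjusted p, 0.240, and was called with the 4 mRNA controls (2.43, adjusted p = 0.0285). Whether the step from normal to tumor differed between lung and mammary gland was tested as an interaction, and 0 of the 6 members were called (smallest adjusted p = 0.310, and 0 with an unadjusted p under 0.05), against 11.5% of all probes. miR-16 was called there with the 4 mRNA controls (-2.76, adjusted p = 0.0375) and with only the groups compared (-1.21, adjusted p = 0.0200).

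The cultures allow a look at the tumor cells without a host. Against PT, 5 of the 6 members were called lower and 0 higher, with 22.0% of all probes called lower. Among the 323 probes with at least 20 in 2 samples, fitted alone, 131 were called lower. miR-16 had a log2 fold change of -3.78 (SE 0.35, adjusted p = 1.38e-08) and miR-15a of -2.88 (SE 0.41, adjusted p = 7.22e-06). With 1 sample left out, miR-16 ran from -4.64 to -2.92 and miR-15a from -3.90 to -1.86. miR-322 had -2.13 (SE 0.25, adjusted p = 3.96e-07) and miR-497 -1.86 (SE 0.53, adjusted p = 0.0101), but each was above the limit in 1 of the 4 cultures, so that the size of these changes is uncertain, and with a higher background that of miR-322 was -5.54. miR-195 was called too (adjusted p = 0.000108), at the floor in each culture and above the limit in 4 of 12 PT samples, and lost its call with a higher background (-0.90, adjusted p = 0.521). miR-15b had 0.33 (SE 0.23, adjusted p = 0.310), but was called higher with the miRNA total (1.40), the 100 most abundant miRNAs (2.66) and a higher background (1.15). The median over the 6 was -2.51, beside -0.08 over all probes. Without monolayer replicate 1 the fold change of miR-497 was -0.55 and its call was lost (adjusted p = 0.178), as with the miRNA total (-1.10, adjusted p = 0.211), and on the scale of the 100 most abundant miRNAs miR-322 had 0.14 and was not called, nor were miR-15a and miR-497.

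Between spheres and monolayer, 1 of the 6 was called lower and 0 higher, against 1.72% of all probes called lower. This was miR-15b, with a log2 fold change of -1.40 (SE 0.39, adjusted p = 0.0369). Over the other settings it ran from -1.66 to -0.71. The call was lost with no scaling, with the 4 mRNA controls and with only the groups compared. It was also lost without monolayer replicate 1, spheres replicate 1 or spheres replicate 2, each of which leaves 1 sample in a group. miR-16 (-1.76, adjusted p = 0.131) and miR-15a (-1.74, adjusted p = 0.226) rested on the gap between the 2 monolayer samples, and without monolayer replicate 2 both were called (-3.49 and -3.77) and 4 members in all. That leaves 1 monolayer sample, whose spread is taken from the rest of the groups, so the values restate its level. Monolayer replicate 1 had 941.0 for miR-16 and replicate 2 had 85.6, close to the spheres.

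The X chromosome cluster holds further miRNAs beside miR-322 and miR-503. From a list of 9 names (miR-351, miR-542-3p, miR-542-5p, miR-450a, miR-450a-3p, miR-450b-3p, miR-450b-5p and the passenger strands of miR-322 and miR-503), 7 matched a probe. The hairpins of miR-322 and miR-450b lie 6176 bases apart. In NMG 5 or 6 of the 7 were above the limit and in normal lung 6 or 7, against 0 to 2 in the tumor lanes and 0 in the cultures. Detection also fell over the whole panel. Of all 566 mouse miRNA probes, 345 and 358 were above the limit in NMG and 257 and 368 in normal lung. In tumor lanes 135 to 258 were, and each culture had fewer than any tumor lane, with 108 and 119 in spheres. miR-450a-3p was above 0 in normal lung alone and is left out of the counts of calls. Of the other 6, in carcinoma against NMG, 4 were called lower and 0 higher, in EMT-like areas 4 and 0, and in metastases against normal lung 4 and 0, beside 23.8%, 20.4% and 42.2% of all probes called lower. Apart from miR-450a-5p, the miRNAs called were under the limit in each tumor sample, so no fold is given for them and their calls rest on the normal lanes. Under the other four scalings 3 to 5, 2 to 4 and 4 to 6 were called lower and 0 higher. Between normal lung and NMG 1 was called higher, miR-450b-5p, and 0 lower, against 11.7% of all probes. Between metastases and PT 0 were called, beside 3.09% of all probes, with miR-450a-5p at -1.40 (adjusted p = 0.0630), and with no scaling it was called (-1.93, adjusted p = 0.00357).

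miR-450a-5p was above the limit in each NMG, normal lung and PT sample and in 2 of 4 metastases. Its normalized value was 194 ± 85.4 (SD, n = 2) in NMG, 423 ± 60.9 (n = 2) in normal lung, 36.0 ± 13.3 (n = 5) in carcinoma, 59.0 ± 12.7 (n = 7) in EMT-like areas and 17.8 ± 6.48 (n = 4) in metastases. The log2 fold change was -2.40 (adjusted p = 0.00381) in carcinoma, -1.66 (adjusted p = 0.0319) in EMT-like areas and -4.55 (adjusted p = 2.54e-06) in lung. Scaled by the 100 most abundant miRNAs, it was not called in carcinoma or EMT-like areas (adjusted p = 0.206 and 0.738), nor in EMT-like areas with the miRNA total (adjusted p = 0.294). No culture was above the limit for it. miR-450b-5p had 15.3 ± 3.57 in NMG and 63.6 ± 0.627 in normal lung (SD, n = 2 each) and was under the limit in each tumor lane.

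miR-103 and miR-107 carry a related seed shifted by a base, and are known for a part in lipid and insulin metabolism. Their sequences are shown to mark the shift, with bases 2 to 8 in capitals.
miR-103: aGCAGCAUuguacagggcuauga
miR-107: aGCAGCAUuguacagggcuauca
miR-103 had a normalized value of 844 ± 118 (SD, n = 2) in NMG, 259 ± 34.6 (n = 5) in carcinoma and, over the 7 EMT-like areas, 237 ± 51.1. That was a log2 fold change of -1.71 for carcinoma (adjusted p = 9.19e-05) and -1.86 for EMT-like areas (adjusted p = 2.22e-05). Of all probes, 23.8% and 20.4% were called lower in these comparisons. In metastases against normal lung, where 42.2% of all probes were called lower, miR-103 had -1.46 (adjusted p = 0.000394). It had 0.01 there with the miRNA total and 0.32 with the 100 most abundant miRNAs. miR-107 was called lower in EMT-like areas (-1.78, adjusted p = 0.0129, lost at 0.146 with the miRNA total and 0.602 with the 100 most abundant miRNAs) and not in carcinoma (-1.22, adjusted p = 0.101) or metastases (-1.27, adjusted p = 0.0657). On the unscaled values and on those scaled by the 4 mRNA controls it was called lower in carcinoma (-2.78 and -2.09, adjusted p = 0.000319 and 0.0392) and metastases (-3.40 and -3.76, adjusted p = 2.37e-05 and 0.000218). Both were called lower in cultures than in PT, beside 22.0% of all probes. miR-103 had -1.46 there, but was called higher (0.85) when the 100 most abundant miRNAs set the scale. miR-107 was under the limit in each culture (adjusted p = 5.4e-07), at least 1.46-fold lower with the cultures set at their detection limits. miR-1907, which was listed with the family, was under the limit in all 24 lanes.

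Some miRNAs outside the family had a pattern close to it. Among 191 miRNAs above the limit in at least 12 lanes, those with the highest Pearson correlation with miR-16 over the 24 samples, on log2(normalized value + 1), were miR-143 (0.97), miR-1951 (0.96) and miR-450a-5p (0.96). For miR-195 they were miR-451 (0.91), miR-10a (0.90) and miR-142-3p (0.88), and for miR-322 miR-29c (0.96), miR-142-3p (0.93) and miR-145 (0.92). The samples fall into normal, tumor and culture groups that set most of these correlations, and all share the lane scaling, so they are a description only.

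Markers of several cell types other than the tumor cell were also higher in normal tissue than in tumors, and the erythroid and endothelial ones were lowest in the cultures, as were miR-16 and miR-322. Of 3 erythroid miRNAs (miR-144, miR-451, miR-486), 3 were above the limit in both normal tissues, 1 to 3 in tumor lanes and 0 in cultures. Over all 566 mouse miRNA probes, 345 and 358 were above it in NMG, 257 and 368 in normal lung, and 135 to 258 in tumor lanes. In spheres 108 and 119 were. Detection counts of the other lists are read beside these numbers too. The summed normalized value of the erythroid miRNAs was 8119 and 8509 in NMG (normal lung, 49121 and 55994). It was 83.7 to 297 in PT, 348 to 533 in metastases and at most 14.0 in the cultures. miR-451 gave most of the signal in the tissues, and in NMG it had 7438 ± 52.2 (SD, n = 2) against 134 ± 48.6 (n = 5) in carcinoma. Each tumor kind was called lower than its normal tissue in all 3, beside 23.8%, 20.4% and 42.2% of all probes, and with the 100 most abundant miRNAs as scaling 2 of the 3 were called in either kind of primary tumor area.

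Both endothelial probes (miR-126-3p and miR-126-5p) were above the limit in each tissue lane and in 0 of 4 cultures. Their sum was 10971 and 17649 in NMG (normal lung, 67772 and 70141) and 819 to 3114 in the tumors, nearly all of it miR-126-3p. The sum of the 5 leukocyte probes was 2628 and 5720 in NMG and 4834 and 6181 in normal lung, led by miR-142-3p. It was 572 to 1243 in PT and 870 to 1634 in metastases, led by miR-155, whose probe name states a correction for signal of a positive control and which had a deposited value between 245 and 442 in all lanes. Between carcinoma and NMG 3 of the 5 were called lower, and miR-155 (377 against 118) and miR-142-5p (50.0 against 20.6) higher, beside 23.8% of all probes called lower and 5.49% higher. Both higher calls were lost on the unscaled values (miR-155 at 0.10, miR-142-5p at -0.31) and when the 4 mRNA controls set the scale (0.79 and 0.36). In the cultures, where miR-16 and miR-322 were lowest, the leukocyte sum was 764 to 1130, with miR-142-3p and miR-223 under the limit. Most of it was miR-155, at 665 to 1031. As the deposited value of miR-155 varied little over the lanes, neither this sum nor that of the tumors is read as a level of leukocytes. miR-143 and miR-145 of smooth muscle summed to 6039 and 7591 in NMG, to 765 to 1689 in PT and to 404 to 1371 in the cultures, which overlapped PT.

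The epithelial list (7 probes, among them the miR-200 family, miR-203 and miR-205) bears on the labels. NMG had a summed normalized value of 2925 and 4061. The list summed to 930 to 5385 in carcinoma, 59.4 to 1758 in EMT-like areas, 2509 to 4671 in metastases and 54.5 to 112 in the cultures, where 0 to 2 of the 7 were above the limit. Carcinoma and EMT-like areas overlapped in this sum, with medians of 2806 and 396. The median log2 fold change of the 7 between them was 2.79, beside -0.16 over all probes. Of the 7, 0 were called, where 0.172% of all probes were, so the lack of a call does not show that the areas are alike. The cultures lacked most of these epithelial miRNAs. The adipose-linked list summed to 1589 and 1679 in NMG, 119 to 285 in PT and 81.5 to 249 in the cultures. The lung-enriched list had 1012 and 1106 in normal lung, 353 and 471 in NMG and 12.8 to 30.3 in metastases. The striated muscle list was uneven among normal samples, with 44.5 and 1027 in NMG and 585 and 1724 in normal lung, led by miR-1. It was 10.5 to 75.2 in PT and higher, 104 to 169, in the cultures. In the cultures, where the 3 erythroid and both endothelial probes were under the limit, miR-16 was above it in 4 of 4 lanes and miR-15b too, and miR-322 in 1. The deposited values of miR-16 were low there, 39 to 606, against 1321 to 3341 in PT. In bulk samples such as these, fewer cells of a type and less miRNA per cell cannot be told apart. The part of the listed cell types in the differences of the family was not tested.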

How the data were processed

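Total RNA, captured by laser from tissue or taken from cultures, was hybridised to the nCounter mouse miRNA panel. The deposited table holds 1 whole-number score per probe and lane, which the authors had already background-subtracted, so that 35.2% of miRNA values were below 0 (lowest -20). Per the labels the authors' processing used Partek, with the exact background method not given in the sources used here. All 24 lanes matched a sample, and 0 columns were left unused.

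Values below 0 were set to 0, lanes were scaled by TMM (trims of 30% and 5%), and log2(normalized value + 1) was taken of the 583 probes that exceeded 0 in any lane and was fitted with limma 3.58.1 (trend, 7 groups in 1 fit) in R 4.3.3. Subtracted values carry no count variance, so no count model was used, and the scripts were tested on simulated data. Within-lane ratios were computed in Python 3.11.15 on unscaled values with a pseudocount of 1 and compared by exact permutation. Alternatives were other scalings, a filter of 20 in 2 samples, a higher background (2 SD more subtracted), a pseudocount of 10, only the groups compared, each sample left out, the label series, and the animal or culture number as a block. For the ratios, 1 value per animal (with the cultures kept as single samples) and metastases paired with PT of the same animal were added after seeing the data.

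The members were named in each comparison, miR-503 only by its values. Of the fixed lists, counts were given, with the most abundant members as examples. Patterns alike were the 3 highest correlations. The 7 members and the lists were chosen with earlier results of these data known. The animal numbers, taken from the labels, were checked on 183 probes: deviations from the group means had a median correlation of 0.15 in 10 pairs of samples from 1 animal, of 0.093 in 32 pairs of other animals of the same label series, and of -0.16 in 41 pairs from different series.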

Additional observations from a re-analysis of the deposited data

Results flagged for a closer look

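Of 18 groups of 4 or more samples checked for a sample far from the others (6 detected miRNAs), 3 held one, where chance gives about 1 in 20. EMT-like replicate 1, which pools 3 animals, had the lowest normalized value of miR-15b, 832, against 1461 to 1935 in the other EMT-like samples, a gap of 0.571 of the range. The same sample was lowest in miR-16, with 1263 against 2065 to 2635 (gap 0.585 of the range). Lung metastasis replicate 2 was highest in miR-195, with 30.5 against 10.2 to 13.2 in the other metastases (gap 0.854 of the range). Its deposited value of miR-195 was 16, under that lane's limit of 18.2, so this high value was itself not detected. Without that sample the log2 fold change of miR-195 against normal lung was -2.61 (limma, adjusted p = 0.0224). The cause of these values was not tested.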

How the results depend on the processing

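The sign of miR-15b depended on the scaling. With no scaling it had a log2 fold change of -0.93 (carcinoma against NMG), -0.95 (EMT-like areas), -1.97 (metastases against normal lung) and -0.62 (cultures against PT), and with the 4 mRNA controls -0.24, -0.80, -2.33 and -0.10. The median of all probes moved with these scalings by -1.15, -0.86, -1.43 and -0.20, and by -0.58, -0.70, -1.72 and -0.05. With the miRNA total it moved by 0.35, 0.30, 0.74 and 0.08, and with the 100 most abundant miRNAs by 0.57, 0.41, 0.87 and 0.43. All probes called higher and lower were 32 and 139 in carcinoma, 5 and 289 with no scaling, 58 and 79 with the 100 most abundant miRNAs. In EMT-like areas they were 26 and 119, 10 and 201, 74 and 72, and in cultures 49 and 128, 4 and 156, 220 and 62. In metastases against normal lung they were 41 and 246, 3 and 386 with the mRNA controls, and 95 and 128 with the 100 most abundant.

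Counts of members in this section are over all 7 and include miR-503, called in every setting run of tumors against normal tissue. With the 100 most abundant miRNAs, 3 members were called in EMT-like areas, 3 in metastases against normal lung, 3 in cultures and 2 in spheres, miR-322 had 0.14 in cultures and miR-497 had 0.63 in spheres. With the miRNA total, 3 were called in EMT-like areas, 1 between normal tissues and 2 in spheres, where miR-497 had 0.11. With the mRNA controls, 1 was called between normal tissues, 0 in spheres (miR-497 at 0.19) and 1 in the interaction. With no scaling, 1 was called between metastases and PT and 0 in spheres, and with only the groups compared 0 in spheres and 1 in the interaction. Over all settings other than left-out samples, all probes called ranged from 125 to 211 in EMT-like areas, 170 to 389 in metastases against normal lung and 130 to 282 in cultures. They ranged from 0 to 41 in spheres, 30 to 160 between normal tissues, 10 to 41 between metastases and PT and 36 to 104 in the interaction.

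A higher background gave within-lane log2 differences of -2.93, -1.92 and 4.31 for miR-195 to miR-16 (PT against NMG, metastases against normal lung, cultures against PT), -0.68 for miR-322 to miR-16 and -1.58 for miR-497 to miR-195 in cultures, and 0.66 for miR-503 to miR-322 in PT. A pseudocount of 10 gave 0.21 and 3.52 for miR-195 to miR-16 (PT, cultures), 2.64 for miR-503 to miR-322 (PT), and -0.15 and -0.13 for miR-497 to miR-195 (metastases against normal lung, cultures). These ratios rest on values near the limit. With 1 value per animal, chosen after seeing the data, the differences of miR-15b to miR-15a (2.09) and miR-322 to miR-16 (-1.78) in PT and of miR-322 to miR-16 in cultures (1.76) lost their calls.

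With each sample left out, the number of members called changed in carcinoma, EMT-like areas, between normal tissues, in spheres and in the interaction. Some of these fits leave 1 sample in a group, so no counts are given for them. For miR-15b the lowest and highest values were -0.064 and 0.52 (EMT-like areas against NMG) and -0.061 and 0.42 (metastases against normal lung). In spheres miR-15a ranged from -3.77 to 0.30 and miR-497 from -2.63 to 2.61, each end set by a monolayer sample. The log2 difference of miR-15b to miR-15a in PT ranged from 1.98 to 2.11 and that of miR-322 to miR-16 from -1.77 to -1.63. In cultures miR-195 to miR-16 ranged from 1.13 to 2.44, miR-322 to miR-16 from 1.34 to 2.32 and miR-497 to miR-195 from -0.040 to 1.38, and in metastases against normal lung miR-497 to miR-195 from -0.23 to 0.51.

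With the animal or culture number as a replicate block, 4 members were called in EMT-like areas, miR-195 losing its call (-2.18, adjusted p = 0.05004), and the block changed no other member's call. Set against the PT samples of the same animal, a replicate block chosen after seeing the data, the metastases differed in the ratio of miR-503 to miR-322 by 1.37 and its call was lost, where 4 animals allow no call. Lanes of tumors and cultures held fewer counts than normal lanes, so the weak miR-195, miR-497 and miR-503 could fall under the limit there. The cause of the other changes was not tested.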
